A study of Mus musculus with 12 samples.

Results

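The subunits of the proteasome were followed in paused mouse embryonic stem cells. Members were the rows of the deposited count table named Psma, Psmb, Psmc or Psmd with a number, leaving out the immunoproteasome subunits Psmb8, Psmb9 and Psmb10, which gave 36 of 24421 genes. The core particle had 16 members, 8 of the alpha ring and 8 of the beta ring. The regulatory particle had 20, made up of 6 ATPases, 11 non-ATPase subunits and 3 assembly chaperones. All 36 passed the filter on low counts, so each entered the tests over 14497 genes.

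PolyA RNA was sequenced from 12 libraries of E14 cells, a mouse embryonic stem cell line, with the labelled genotype WT(dCas_Alkbh5), a Cas protein fused to an enzyme that removes m6A from RNA. All 12 grew on gelatin in FBS/LIF, received a guide plasmid, spent 3 days under blasticidin at 8 µg/mL and then 5 days in INK128, an mTOR inhibitor, at 200 nM. The 4 NT libraries carried a non-targeting guide, 4 carried Mycn-gRNA2 and 4 carried Mycn-gRNA3, so the control cells shared the fusion, the selection and the mTOR block. Unpaused cells and the untreated parent line were not analysed here. Whether the 4 replicates of a group were separate cultures is not labelled, so the p-values rest on a replicate spread that may be technical.

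The proteasome degrades proteins tagged with ubiquitin. Its core particle is a barrel of stacked rings, in which outer rings of alpha subunits gate the entry and inner rings of beta subunits hold the cutting sites. The regulatory particle caps the barrel, binds ubiquitin chains, removes them and unfolds the substrate with a ring of ATPases. Subunits assemble in fixed proportion with the help of chaperones, and the transcription factor NFE2L1 is known to raise their genes together when the proteasome is inhibited.

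Promoters from RefSeq on GRCm38.p6, reaching 250 bases before and 50 bases after the gene start, were available for 29 of the 36 members in 31 windows. They were searched on both strands for the E-box CACGTG, the core of the element read by NFE2L1 and NFE2L2, TGACNNNGC, and the CCAAT box. CACGTG was in 2 of 31 member windows (6.45%), those of Psma4 and Psmd9, against 7.15% of 32851 promoters. TGACNNNGC was in 5 (16.1%), those of Psmb5, Psmb6, Psmc6, Psmd12 and Psmd9, against 12.4% of all promoters. CCAAT was in 12 (38.7%) against 37.4%. The shares in the members were close to those of all promoters for each motif, and the motifs do not overlap in the 4 windows below. Shown are the promoter of Psma5, the member with the largest difference between guides and NT, which held none of the 3 motifs, and those of Psmb5 and Psmb6, catalytic subunits with the NFE2L1 element, and of Psma4 with the E-box. Matched bases are in capitals.
Psma5 promoter, chr3:108256676-108256975, plus strand: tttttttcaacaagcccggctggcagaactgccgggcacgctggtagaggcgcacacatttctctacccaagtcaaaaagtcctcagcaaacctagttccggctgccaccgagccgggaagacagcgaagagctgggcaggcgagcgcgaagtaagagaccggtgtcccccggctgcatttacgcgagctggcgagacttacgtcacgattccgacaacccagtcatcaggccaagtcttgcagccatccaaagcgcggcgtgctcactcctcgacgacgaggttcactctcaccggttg
Psmb5 promoter, chr14:54617946-54618245, minus strand: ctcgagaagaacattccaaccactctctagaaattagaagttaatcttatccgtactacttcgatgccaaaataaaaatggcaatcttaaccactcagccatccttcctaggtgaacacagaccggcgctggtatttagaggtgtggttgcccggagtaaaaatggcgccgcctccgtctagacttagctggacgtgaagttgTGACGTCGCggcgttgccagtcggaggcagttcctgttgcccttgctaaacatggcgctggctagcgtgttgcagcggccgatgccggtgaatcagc
Psmb6 promoter, chr11:70525107-70525406, plus strand: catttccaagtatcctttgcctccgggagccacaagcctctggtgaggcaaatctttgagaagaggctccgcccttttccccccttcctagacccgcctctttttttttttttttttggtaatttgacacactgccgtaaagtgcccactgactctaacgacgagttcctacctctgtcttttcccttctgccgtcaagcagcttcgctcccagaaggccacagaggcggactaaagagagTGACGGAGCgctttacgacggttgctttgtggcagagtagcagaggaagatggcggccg
Psma4 promoter, chr9:54950609-54950908, plus strand: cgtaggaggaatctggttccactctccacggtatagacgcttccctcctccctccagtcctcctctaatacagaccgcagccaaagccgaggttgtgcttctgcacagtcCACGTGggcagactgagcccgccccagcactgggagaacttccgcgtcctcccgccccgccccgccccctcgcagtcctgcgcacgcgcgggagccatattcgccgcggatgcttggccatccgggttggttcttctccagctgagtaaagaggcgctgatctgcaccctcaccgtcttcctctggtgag

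Libraries held 17248564 to 33819855 endogenous reads, and ERCC RNAs, synthetic RNAs added to the extracted RNA, took 1.03% to 1.6% of reads. Mycn, the transcript the guides address and a MYC-family growth regulator, had 141, 146, 139.8 and 136 CPM (reads scaled to library size with TMM factors) in NT replicates 1 to 4, 205, 224, 255 and 262 CPM with Mycn-gRNA2 and 267, 289, 292 and 258 CPM with Mycn-gRNA3, without overlap between NT and the guides. Levels were compared relative to the transcriptome (TMM) and per ERCC read. The 8 markers of embryonic stem cells were all detected and summed to 4694 to 5129 CPM in NT and 3737 to 4456 CPM in the guide libraries, while 8 primitive endoderm markers summed to 173 to 243 and 233 to 371 CPM and 8 fibroblast markers to 126 to 211 and 146 to 326 CPM, with no read of Postn in NT. The 4 immune cell markers summed to 111 to 148 CPM in NT and 72.2 to 142 CPM in the guide libraries. Nearly all of that sum was Laptm5, and Ptprc, Cd52 and Cd74 were each at most 0.941 CPM in any library. Most of the fibroblast sum was Vim, at 121 to 207 CPM in NT and 138 to 318 CPM in the guide libraries. The largest part of the primitive endoderm sum was Lamb1, at 131 to 176 CPM in NT and 128 to 219 CPM in the guide libraries. Lamb1, Gata4 and Sox17 overlapped between NT and the guides. Foxa2, Gata6, Dab2, Col4a1 and Col4a2 were higher in every guide library than in any NT library. The Y-linked genes Kdm5d, Uty, Ddx3y and Eif2s3y summed to 0.0449 to 0.181 CPM in NT and 32.4 to 83.8 CPM in the guide libraries, so guide and Y chromosome expression cannot be told apart in this design. The part of these differences in the results below was not tested, and in bulk RNA fewer cells of a type and less RNA per cell cannot be told apart.

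One library stood apart. In Mycn-gRNA2 replicate 1 the median absolute deviation of a gene from its group's mean was 0.198 on the log2 CPM scale. It was 0.0385 to 0.11 in the other 11. For the proteasome members it was 0.266 there and 0.0271 to 0.146 elsewhere. Across 8979 genes its deviation from the median of its group's other libraries ran against GC content (Spearman's rho -0.484). That of Mycn-gRNA2 replicate 4 ran with it (0.582), and the other 10 libraries lay between -0.145 and 0.235. Over 35 members, rho was -0.431, -0.276, -0.606 and 0.675 in Mycn-gRNA2 replicates 1 to 4. It was -0.157 to 0.151 in the NT and Mycn-gRNA3 libraries. These are descriptions over genes of single libraries, the deviations of libraries in 1 group depend on each other, and the part of GC content in the results was not tested. Results that rest on Mycn-gRNA2 replicate 1 are given with and without it.

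Per length, the subunits sat close together. In NT, the 31 constitutive subunits (without the 3 chaperones, Psma8 and Psmb11) ran from 143 TPM for Psmd14, the deubiquitinase of the lid, to 392 TPM for Psmb7, a range of 2.74-fold, against a median of 17.7 TPM over all tested genes. The ATPases spanned 185 TPM (Psmc2) to 353 TPM (Psmc1) and the non-ATPase subunits 143 TPM to 324 TPM (Psmd7). The median was 232 TPM over the 8 alpha ring members, Psma8 included, and 287 TPM over the 8 beta ring members, Psmb11 included. The assembly chaperones, which leave the particle once it is built, were lower: Psmd5 had 85.3 TPM, Psmd10 22.7 TPM and Psmd9 21.2 TPM. Psma8, the germ cell counterpart of Psma7, stood at 15.1 TPM, and Psmb11, the beta subunit of thymic cortical epithelium, at 1.88 TPM.

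**Figure D1:**
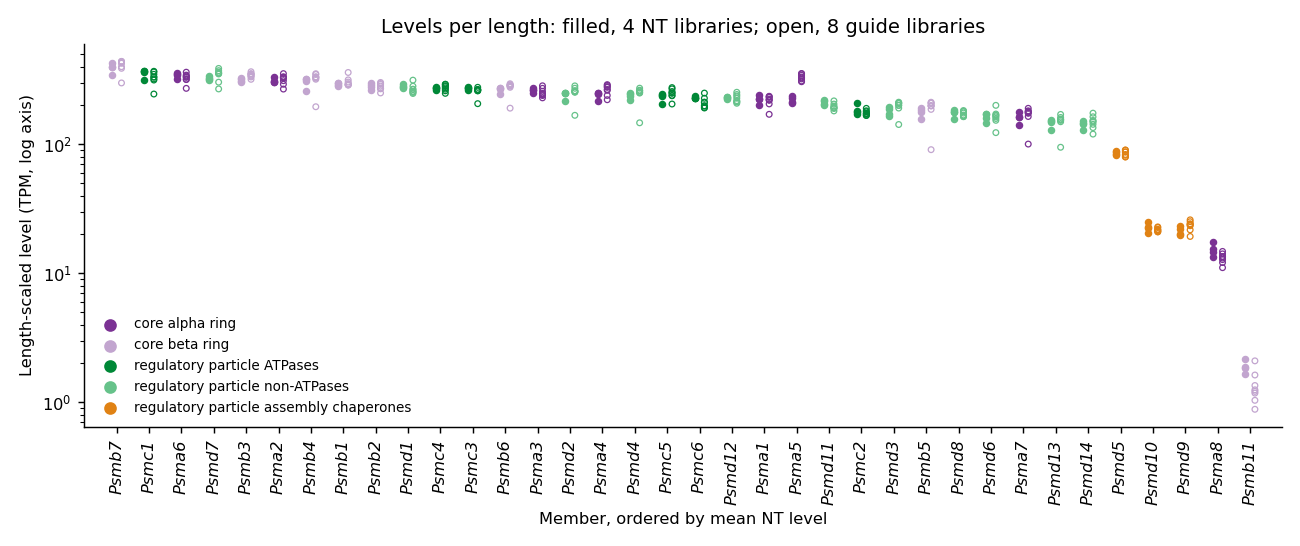
Length-scaled level of each member (TPM, log axis) in the 4 NT libraries (filled points) and the 8 guide libraries (open points), ordered by mean NT level and coloured by role. The 31 constitutive subunits lie between 143 and 392 TPM in NT, with the chaperones, Psma8 and Psmb11 below them; the lowest open points of many subunits come from Mycn-gRNA2 replicate 1.

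Relative to the transcriptome, 3 of the 36 members passed with all 12 libraries, and 14 passed without Mycn-gRNA2 replicate 1. With both Mycn guides against NT, the alpha subunit Psma5 and the beta subunit Psmb3 rose, and Psmb11 fell, so 2 of 16 core members were higher and 1 was lower. None of the 20 regulatory members passed with all libraries (6 did without Mycn-gRNA2 replicate 1), and none had an unadjusted p under 0.05 in edgeR; DESeq2 also called none of them. Over all 14497 genes, 14.9% were called higher and 13% lower by the same test. The median log2 difference was 0.08 over the core members and 0.03 over the regulatory members, against -0.0027 over all tested genes. Calls used edgeR's quasi-likelihood test with Benjamini-Hochberg adjustment over all tested genes at 0.05.

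Among the alpha subunits, Psma5 stood out. It encodes a constitutive subunit of the alpha ring and lies on mm10 at chr3:108256926-108279952, plus strand. Its level was 100.3, 106, 110.5 and 95.8 CPM in NT replicates 1 to 4. It was 159, 152, 167 and 147 CPM with Mycn-gRNA2 and 154, 168, 162 and 151 CPM with Mycn-gRNA3. All 8 guide libraries lay above every NT library, Mycn-gRNA2 replicate 1 included, and Psma5 was the only one of the 36 members for which this held, while 0 members lay wholly below. Over all tested genes, 8.56% lay wholly above and 6.87% wholly below.

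The Psma5 difference was 0.61 ± 0.06 (log2, SE) for both guides (edgeR adjusted p = 8.66e-06), 0.60 ± 0.07 for Mycn-gRNA2 (edgeR adjusted p = 4.78e-05) and 0.62 ± 0.07 for Mycn-gRNA3 (edgeR adjusted p = 2.49e-05). It was 0.61 without Mycn-gRNA2 replicate 1, 0.62 in replicates 1 and 2 alone and 0.60 in replicates 3 and 4 alone. On the length scale it went from 221 ± 14.6 TPM in NT (SD, n = 4) to 331 ± 18.1 TPM in the guide libraries (SD, n = 8), and from rank 22 to rank 4 of the 36 members. Of the summed TPM of the 7 constitutive alpha subunits it made up 12.5 ± 0.527% in NT (SD, n = 4) and 17.7 ± 1.65% with the guides (SD, n = 8), where 7 equal levels would give 14.3% each.

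The other alpha subunits did not pass. Psma4 had a log2 difference of 0.17 and Psma7, whose place in the ring Psma8 takes in germ cells, 0.09. Psma2 had 0.05, and Psma1, Psma3 and Psma6 lay between -0.04 and 0.00. Psma8 had -0.18 (edgeR adjusted p = 0.184) from 122 to 275 reads in a library. It had 11.5, 9.96, 9.38 and 8.53 CPM in NT, 9.13, 7.27, 8.90 and 9.03 CPM with Mycn-gRNA2 and 9.53, 8.42, 9.01 and 8.23 CPM with Mycn-gRNA3. These groups overlapped.

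**Figure D2:**
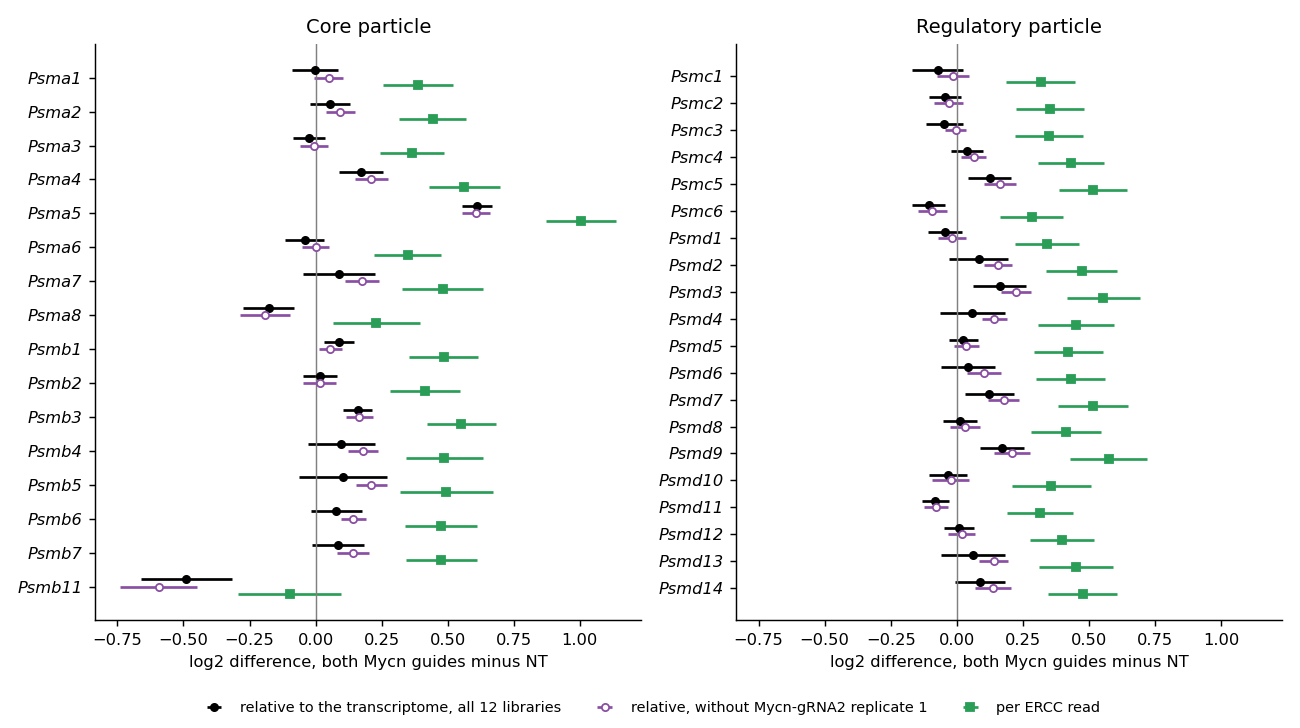
Log2 difference of each member, both Mycn guides minus NT, with bars of 1 SE, in the core particle (left) and the regulatory particle (right). Black points are relative to the transcriptome with all 12 libraries, open purple points leave out Mycn-gRNA2 replicate 1, and green squares are per ERCC read. Psma5 lies at 0.61 on the relative scale, the other members near 0, and Psmb11 at -0.49.

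The beta subunits that cut proteins are Psmb5, with chymotrypsin-like activity, Psmb6, with caspase-like activity, and Psmb7, with trypsin-like activity. Psmb5 (mm10 chr14:54614120-54617995, minus strand) had 62.4, 64.2, 59.4 and 51.9 CPM in NT, 30.2, 70.7, 63.4 and 68.8 CPM with Mycn-gRNA2 and 65.8, 71.9, 73.6 and 69.8 CPM with Mycn-gRNA3. All 4 Mycn-gRNA3 libraries lay above the NT libraries, and Mycn-gRNA2 replicate 1 lay below all 11 others. Psmb6 (chr11:70525357-70527858, plus strand) had 109.8, 107.7, 107.6 and 96.3 CPM in NT, 75.4, 116, 112 and 117 CPM with Mycn-gRNA2 and 111, 119, 122 and 119.6 CPM with Mycn-gRNA3. For Psmb6, every guide library except Mycn-gRNA2 replicate 1 lay above the NT libraries.

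Psmb7 (chr2:38588046-38643906, minus strand), the member with the highest length-scaled level, had 151, 147, 157 and 128 CPM in NT, 111, 162, 166 and 154 CPM with Mycn-gRNA2 and 143, 166, 170.3 and 166 CPM with Mycn-gRNA3, and its groups overlapped. None of the 3 catalytic subunits passed with both guides: the log2 differences were 0.10 ± 0.17 for Psmb5, 0.08 ± 0.10 for Psmb6 and 0.08 ± 0.10 for Psmb7 (SE), with edgeR adjusted p of 0.674, 0.579 and 0.555. Without Mycn-gRNA2 replicate 1, Psmb5 was higher by 0.21 ± 0.06 and Psmb6 by 0.14 ± 0.05 (SE), with edgeR adjusted p of 0.0106 and 0.0227. Exons of Psmb5 overlap Mir686 on the same strand, so reads there cannot be told apart.

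**Figure D3:**
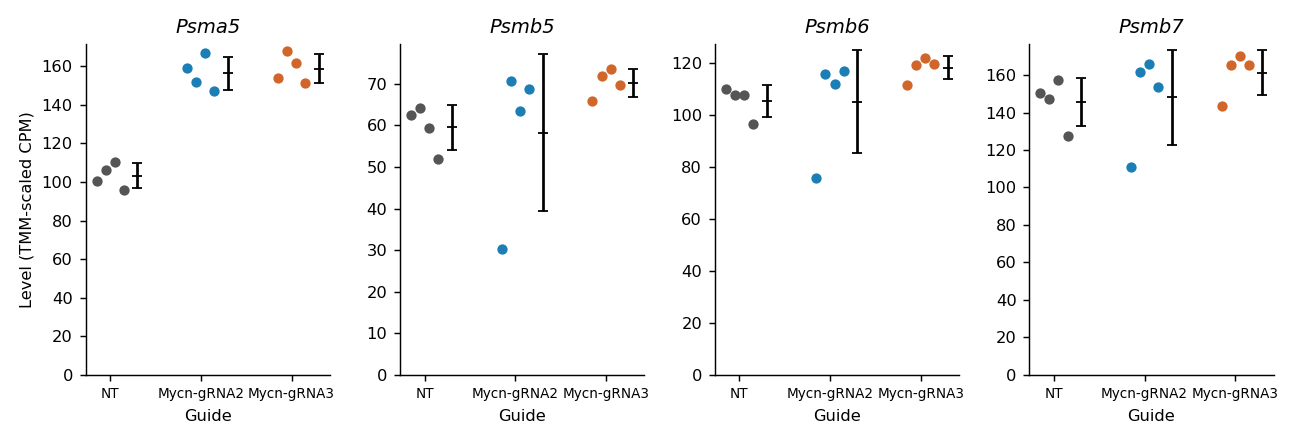
TMM-scaled CPM of Psma5 and of the catalytic subunits Psmb5, Psmb6 and Psmb7 in each of the 12 libraries (points), with mean and SD beside each group of 4. For Psma5 all 8 guide libraries lie above the NT libraries; for the catalytic subunits Mycn-gRNA2 replicate 1 is the lowest of all libraries, at 30.2 CPM for Psmb5.

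Psmb3, a structural beta subunit without a cutting site (chr11:97703434-97713500, plus strand), rose by a small amount. It had 86.8, 92.1, 89.3 and 85.1 CPM in NT, 94.4, 99.8, 99.9 and 96.4 CPM with Mycn-gRNA2 and 89.0, 100.3, 108 and 100.7 CPM with Mycn-gRNA3. The groups touched, since Mycn-gRNA3 replicate 1 lay within the NT range. The log2 difference was 0.16 ± 0.06 (SE, edgeR adjusted p = 0.0493), and the call was lost on leaving out any 1 of 10 libraries, with adjusted p from 0.0599 to 0.144 in edgeR; it remained without Mycn-gRNA2 replicate 1 or Mycn-gRNA3 replicate 1.

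Psmb11 (chr14:54625310-54629556, plus strand) was the one member called lower, and it was nearly silent, at 40 to 79 reads in a library. It had 2.75, 3.05, 2.97 and 3.47 CPM in NT, 3.39, 2.68, 1.71 and 2.04 CPM with Mycn-gRNA2 and 2.18, 1.46, 2.03 and 2.13 CPM with Mycn-gRNA3. The Mycn-gRNA3 libraries lay below the NT libraries, and Mycn-gRNA2 replicate 1 lay within the NT range. With both guides it fell by 0.49 ± 0.17 (log2, SE) at an edgeR adjusted p of 0.0469, and by 0.65 ± 0.20 with Mycn-gRNA3 (edgeR adjusted p = 0.0269). Leaving out any 1 of 10 libraries raised the adjusted p to between 0.0502 and 0.143 in edgeR, and per ERCC read the difference was -0.10 (edgeR adjusted p = 0.668). Psmb1, Psmb2 and Psmb4, the other structural beta subunits, had 0.09, 0.02 and 0.10 and did not pass.

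In the regulatory particle, the ATPases lay around 0, from -0.11 for Psmc6 to 0.12 for Psmc5. Psmc1, the ATPase with the highest level per length (chr12:100112331-100123364, plus strand), had 215, 208, 208 and 177 CPM in NT, 140, 211, 203 and 190 CPM with Mycn-gRNA2 and 179, 214, 201 and 199 CPM with Mycn-gRNA3. Those groups overlapped throughout, and the log2 difference was -0.07 ± 0.10 (SE). The non-ATPase subunits ran from -0.08 (Psmd11) to 0.16 (Psmd3), with 9 of 11 above 0. Among them are Psmd4, a ubiquitin receptor, with 0.06, and the deubiquitinase Psmd14, with 0.09.

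Of the assembly chaperones, Psmd9 had 0.17, Psmd5 0.03 and Psmd10 -0.03, and none passed. Psmd9, the regulatory member with the lowest level per length (chr5:123228190-123250125, plus strand), had 23.3, 19.6, 21.9 and 19.7 CPM in NT, 19.1, 24.3, 21.9 and 25.8 CPM with Mycn-gRNA2 and 23.4, 26.2, 25.3 and 24.3 CPM with Mycn-gRNA3. Its groups overlapped, with 4 of 4 Mycn-gRNA3 libraries and 2 of 4 Mycn-gRNA2 libraries above the NT range.

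Taken one at a time, the guides called fewer members than together. Mycn-gRNA2 alone raised 1 member (Psma5) and lowered none, where 10.1% of all tested genes rose and 7.05% fell. Mycn-gRNA3 alone raised 1 (Psma5) and lowered 1 (Psmb11), where 14.8% rose and 12.2% fell. Between Mycn-gRNA3 and Mycn-gRNA2, 0 of 36 members were called by edgeR, 0 had an unadjusted p under 0.05 and 0 were called by DESeq2, while 0% of all tested genes were called. The Mycn-gRNA3 minus Mycn-gRNA2 difference ran from -0.32 to 0.27 over the members. Both comparisons with NT use the same 4 NT libraries.

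How many subunits passed depended most on 1 library. In Mycn-gRNA2 replicate 1 the median log2 ratio to the NT mean was -0.29 over the 14 constitutive core subunits and -0.19 over the 20 regulatory members. There the core subunits were uneven, from -0.98 for Psmb5 to 0.63 for Psma5, with an SD over subunits of 0.42, against 0.03 to 0.20 in the other 11 libraries, and 0 of 20 regulatory members lay above their NT mean. NT replicate 4 lay low in the same way but less so, with medians of -0.12 and -0.09. In Mycn-gRNA3 replicate 1 the medians were -0.02 and -0.09, and in the other 6 guide libraries they were 0.10 to 0.19 for the core and 0.03 to 0.15 for the regulatory particle.

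**Figure D4:**
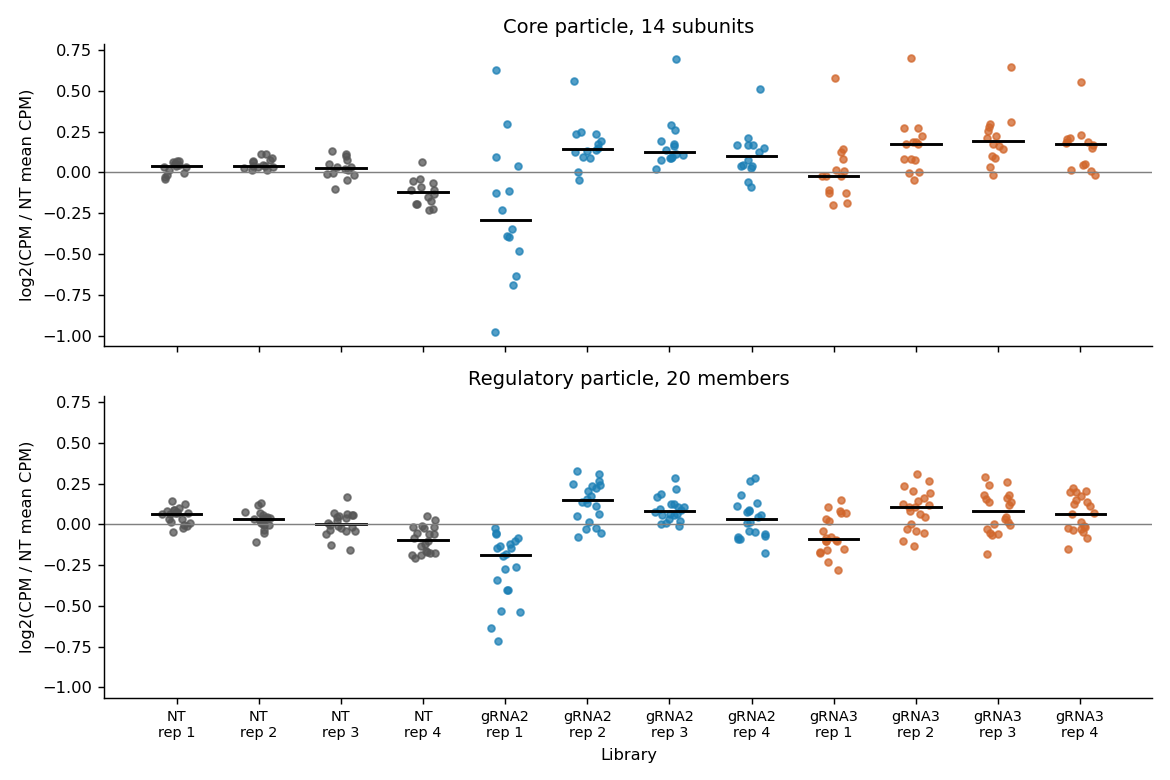
Log2 ratio of each member's CPM to its NT mean, by library, for 14 core subunits (top, without Psma8 and Psmb11) and 20 regulatory members (bottom). Black bars mark medians, grey is NT, blue Mycn-gRNA2 and orange Mycn-gRNA3. Mycn-gRNA2 replicate 1 has the lowest medians, -0.29 and -0.19, and the widest spread, and the highest core point in each guide library is Psma5.

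Without Mycn-gRNA2 replicate 1, the same test called 7 of 16 core members higher (Psma4, Psma5, Psma7, Psmb3, Psmb4, Psmb5 and Psmb6) and 1 lower (Psmb11), and 6 of 20 regulatory members higher (Psmc5, Psmd2, Psmd3, Psmd4, Psmd7 and Psmd9). Over all 14631 genes of that fit, 21.9% were higher and 20.2% lower. The core and regulatory medians were then 0.12 and 0.05. The rises other than that of Psma5 were small, from 0.14 (Psmd4) to 0.22 (Psmd3). Without NT replicate 4 instead, the medians were 0.03 and 0.004, with 1 core and 0 regulatory members higher, where 1627 of 14633 genes rose. Replicates 3 and 4 alone, which include NT replicate 4, called 9 core and 8 regulatory members higher, where 22.7% of all genes rose. Replicates 1 and 2 alone, which include Mycn-gRNA2 replicate 1, called Psma5 only, where 1.04% of all genes rose.

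Summed over the particle, the 14 constitutive core subunits took 1516 ± 80.9 CPM in NT (SD, n = 4) and 1633 ± 135 CPM in the guide libraries (SD, n = 8), a ratio of 1.08. The 20 regulatory members took 2757 ± 107 and 2799 ± 246 CPM, a ratio of 1.02. Without Mycn-gRNA2 replicate 1 the guide means were 1675 and 2874 CPM, and the ratios 1.10 for the core and 1.04 for the regulatory particle. The ratio of core to regulatory CPM was 0.550 ± 0.0117 in NT (SD, n = 4) and 0.584 ± 0.0119 with the guides (SD, n = 8), with 1 guide library, Mycn-gRNA2 replicate 2, inside the NT range of 0.535 to 0.562. With Psma5 left out of the core it was 0.512 ± 0.0103 and 0.527 ± 0.0102, and the ranges, 0.499 to 0.522 and 0.509 to 0.545, overlapped.

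Per ERCC read, nearly every subunit was higher with the guides. With both guides against NT, 34 of 36 members rose, 14 of 16 in the core and 20 of 20 in the regulatory particle, and none fell. On this scale 56.4% of all tested genes were called higher and 0.931% lower, with a median log2 difference of 0.39. The core median was 0.47 and the regulatory median 0.43, against 0.39 for all genes. The exceptions were Psma8 (0.23, edgeR adjusted p = 0.221) and Psmb11. The other members ran from 0.28 (Psmc6) to 0.57 (Psmd9) with Psma5 above them at 1.01 ± 0.13 (SE, edgeR adjusted p = 2.14e-07).

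Psma5 had 5.98, 7.82, 7.25 and 6.00 reads per 1000 ERCC reads in NT, 13.2, 9.71, 13.7 and 14.1 with Mycn-gRNA2 and 14.7, 15.6, 15.4 and 12.4 with Mycn-gRNA3, again without overlap. The summed core went from 99.2 ± 12.4 reads per 1000 ERCC reads (SD, n = 4) to 141 ± 21.1 (SD, n = 8), and the regulatory particle from 180.4 ± 19.8 to 241 ± 33.7. Both sums overlapped between NT and the guides. NT replicate 2 had 115.6 for the core and 207.9 for the regulatory particle. Mycn-gRNA2 replicate 1 had 111.5 and 188.4, and its replicate 2 had 108.7 and 194.6. The other guide libraries lay above every NT library. Mycn-gRNA2 alone raised 9 members on this scale, where 26.3% of genes rose and 0.517% fell. Mycn-gRNA3 alone raised 33, where 60.7% of genes rose and 0.504% fell. Between the guides 0 of 36 members were called per ERCC read, where 0.0069% of genes rose and 0% fell. With both guides, the number called fell to 22 without NT replicate 1, where 5479 of 14642 genes rose. It fell to 20 without NT replicate 4, where 5838 of 14633 rose. In replicates 1 and 2 alone it was 1, Psma5, where 1101 of 14496 rose, against 8177 of 14497 with all libraries. Endogenous reads per ERCC read were 61.3 to 72.1 in NT and 65.6 to 95.6 in the guide libraries. The ERCC RNAs were added after extraction, so the yield of RNA and its amount per cell cannot be told apart.

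The genes around Psma5 were higher as well. Of the 21 genes with a mean log2 CPM above 3 that start within 1 Mb of it, 15 were called higher and 1 lower, with a median log2 difference of 0.45, where 14.9% of all tested genes were higher. The median ratio of these neighbours to their NT mean was -0.04 to 0.02 in the NT libraries and 0.17 to 0.66 in the guide libraries, the lowest being Mycn-gRNA2 replicate 2. The nearest of these neighbours before Psma5 was Atxn7l2, with 0.45 ± 0.08 (SE). The nearest after it was Sort1, a sorting receptor, with 0.51 ± 0.09 (SE). Among the others, the cadherin Celsr2 had 0.97 ± 0.10 and Sars, the cytosolic seryl-tRNA synthetase, had 0.54 ± 0.09 (SE). For the other 34 members with a mean log2 CPM above 3 themselves, the neighbours' median lay between -0.21 (Psmc6) and 0.08 (Psmc1). Psmb11, below that level, was left out.

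The higher genes were not spread evenly along the chromosome. Of 22 genes that start 1 to 5 Mb before Psma5, 15 were higher and 0 lower, with a median of 0.50, while the 19 genes 5 to 10 Mb before it had a median of 0.00. On the other side, among genes with a mean log2 CPM above 3, Sars was the last of the consecutive higher genes. The next ones, Tmem167b (0.03) and Taf13 (0.01), did not pass, while Gpsm2, 0.42 Mb from Psma5, was higher at 0.24. These bounds were read from the values. The 57 genes 5 to 30 Mb after Psma5 had a median of 0.16, with 24 higher and 4 lower, so higher genes were also found beyond the nearest ones. Farther along chromosome 3, the 42 genes 30 to 60 Mb after Psma5 had a median of -0.21, with 3 higher and 23 lower. Psmb4 and Psmd4, the other members on chromosome 3, start 13.4 and 13.2 Mb before it and had 0.10 and 0.06. DNA copy number was not analysed here, and the part of the chromosome in the Psma5 result was not tested.

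**Figure D5:**
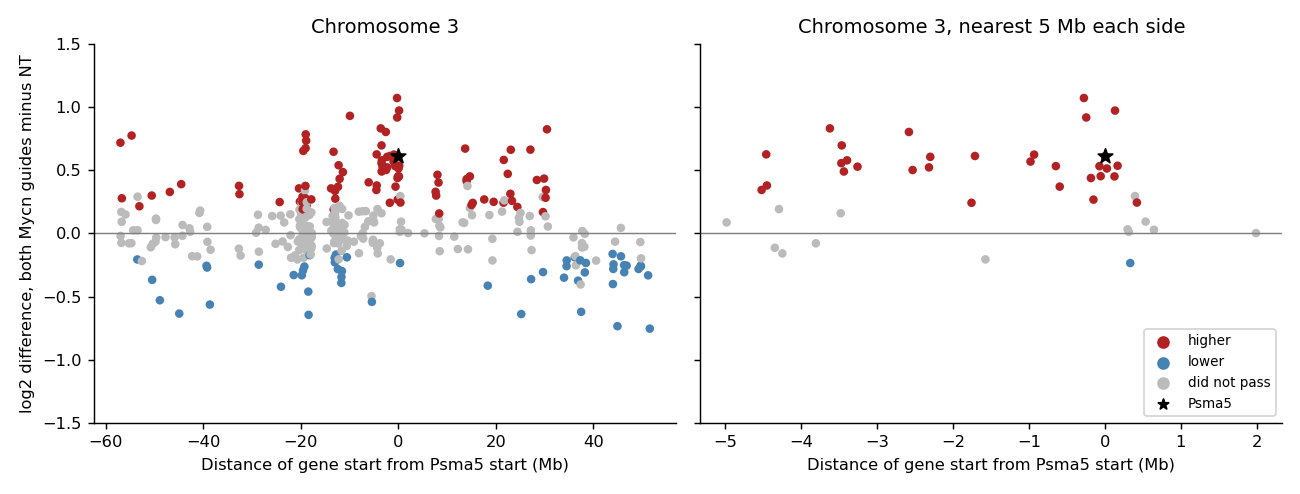
Log2 difference, both Mycn guides minus NT, of genes on chromosome 3 with a mean log2 CPM above 3, by the distance of their start from that of Psma5 (Mb), over 60 Mb (left) and 5 Mb (right) each side. Red points were called higher, blue lower and grey did not pass; the star is Psma5 at 0.61. Most genes within the 5 Mb before Psma5 lie above 0, and the median is -0.21 from 30 Mb after it.

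Other genes of the pathway were read from lists chosen with earlier results of these data known. Of the subunits that carry other names, Shfm1, the small acidic lid subunit, rose by 0.22 ± 0.06 (SE, edgeR adjusted p = 0.0178), and Adrm1, a ubiquitin receptor, had 0.01. None of 5 assembly chaperones outside the members passed in edgeR; 1, Psmg3 (0.40), had an unadjusted p under 0.05. Without Mycn-gRNA2 replicate 1, Psmg3 (0.50) and Psmg4 (0.25) were called higher, with edgeR adjusted p of 0.00155 and 0.0217. Among the activators and the inhibitor, 1 of 5 was called: Psme4, the single-chain activator, fell by 0.15 ± 0.05 (SE, edgeR adjusted p = 0.0444). Psmb10 had 0.26 and did not pass with all libraries, and without Mycn-gRNA2 replicate 1 it was called higher at 0.37 (edgeR adjusted p = 0.0139). Psmb8 and Psmb9 had at most 13 reads in a library and were not tested.

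Among the associated enzymes and adaptors, the shuttle factor Rad23b rose by 0.35 ± 0.05 (SE, edgeR adjusted p = 0.000178). Ubqln4, another shuttle factor, rose by 0.25, and Zfand5, which stimulates the proteasome, fell by 0.18. Among 6 transcriptional regulators, Ngly1, the enzyme that removes sugars from NFE2L1 during its activation, fell by 0.45 ± 0.07 (SE, edgeR adjusted p = 0.000575), while Nfe2l1 had 0.07 and Nfe2l2 had 0.08 and did not pass. Nfe2l2 stood at 244 CPM in Mycn-gRNA2 replicate 1, against 103 to 124 CPM in the other guide libraries and 99.9 to 128 CPM in NT; without that library its difference turned to -0.12 (edgeR adjusted p = 0.155), and Nfe2l1 was called higher at 0.12 (edgeR adjusted p = 0.0349). None of 7 ubiquitin genes, activating enzymes and Vcp passed, and none had an unadjusted p under 0.05. Per ERCC read Psme4 was at 0.25 (edgeR adjusted p = 0.073) and Ngly1 at -0.05 (edgeR adjusted p = 0.76), so their falls are relative to the transcriptome.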

How the data were processed

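PolyA RNA was measured in 12 libraries, grouped by guide from the sample titles. The deposited count table holds raw read counts per gene for 24421 genes and 92 ERCC RNAs. Trim Galore 0.4.0, featureCounts of Subread 1.5.0, edgeR 3.32.1 and build mm10 are named in the submitters' processing notes. The aligner, annotation release and strand setting were not given in the sources used here, and reads of genes that overlap, among them Psma4 and AY074887 on opposite strands, cannot be separated. The authors also deposited log2 values, which equal log2(count + 0.5) minus a constant per library, and these were used in an alternative only.

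Counts were tested with edgeR 4.0.16 in R 4.3.3 (quasi-likelihood F test, robust, filterByExpr, 1 term per group over all 12 libraries), with TMM over endogenous genes or with ERCC totals as library sizes. P-values were adjusted by Benjamini-Hochberg over all tested genes, and SE is the log2 difference over the square root of F. TPM used the deposited gene lengths, and gene length does not enter CPM. Depth was 17248564 to 33819855 endogenous reads, without molecular identifiers. No 2 replicates looked like 1 library: over the 18 pairs, chi-square divided by its degrees of freedom was 8.63 to 72.2. Same-numbered NT and guide libraries had deviation correlations of -0.082 to 0.36, and differently numbered ones of -0.51 to 0.35. These overlapping ranges do not settle whether the numbers pair libraries. The main fit took no pairing, and a fit with the number as a block is given below. On simulated counts for both guides against NT over 14497 genes, 62.9% of 1.5-fold and 92% of 2-fold changes were recovered, with 9 of 14196 unchanged genes called. Each gene was drawn on its own, without a deviation shared by the genes of a library such as Mycn-gRNA2 replicate 1. Recovery of changes below 1.5-fold was not simulated.

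The members and lists were chosen with earlier results of these data known, and 1 gene of the associated enzymes and adaptors is not reported here. Values in every library were given for members called with both guides, for the highest and lowest members per length in each particle, for Psmb5, Psmb6 and Psmb7, and for Mycn; Psmd14, Psmc2 and Psmd7 were named as ends of a range, and Psma8 and the genes beside Psma5 were chosen after their values were seen. Alternatives were DESeq2 1.42.0, its size factors, no filter, a replicate block, left-out libraries, replicates 1 and 2 or 3 and 4 alone, only the groups compared, and limma 3.58.1 on the deposited values. Leaving out libraries, splitting replicates and the block on the ERCC scale were added after seeing the data.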

Additional observations from a re-analysis of the deposited data

Results flagged for a closer look

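Of 108 sets of 4 libraries (36 members in 3 groups), 16 had 1 library set far from the other 3. Chance gives about 1 in 20 such sets, and members of a library share its scaling, so the flags of a library are not independent. Mycn-gRNA2 replicate 1 was flagged as the lowest of its group's 4 libraries for Psmb4 (70.9 CPM), Psmb6 (75.4 CPM), Psmc3 (129 CPM), Psmd3 (117 CPM) and Psmd4 (75.4 CPM). NT replicate 4 was flagged as the lowest of the NT libraries for Psma3 (134 CPM), Psma4 (89.6 CPM), Psmb4 (93.8 CPM), Psmb6 (96.3 CPM), Psmd13 (77.0 CPM) and Psmd2 (251 CPM). Mycn-gRNA3 replicate 1 was lowest for Psma3 (124 CPM) and Psmd14 (79.1 CPM), and Mycn-gRNA2 replicate 2 for Psma8 (7.27 CPM). In NT, replicate 2 was highest for Psmd1 (369 CPM) and replicate 3 lowest for Psmd8 (90.8 CPM).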

How the results depend on the processing

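Psma5 was called higher with both guides under every alternative run on either scale. On the core count with both guides (2 higher, 1 lower), DESeq2 size factors gave 1 higher and no filter gave 1 higher and 0 lower. Leaving out 1 library gave 1 to 7 core members higher and 0 to 1 lower, and 0 to 6 regulatory members higher. The highest came without Mycn-gRNA2 replicate 1, and over all genes 1627 to 3206 rose in these fits. Replicates 1 and 2 alone gave 1 higher and 0 lower in the core, with medians of -0.06 for the core and -0.04 for the regulatory particle, and replicates 3 and 4 alone gave 9 in the core and 8 in the regulatory particle. The ERCC scale gave 14 core members higher and 0 lower, 20 regulatory members higher, and medians of 0.47 and 0.43.

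For Mycn-gRNA2 against NT (1 higher, 0 lower), the ERCC scale gave 9 higher, leaving out 1 library 1 to 4 higher and 0 to 1 lower, replicates 1 and 2 alone 0 higher, and replicates 3 and 4 alone 8 higher and 1 lower. For Mycn-gRNA3 against NT (1 higher, 1 lower), the ERCC scale gave 33 higher and 0 lower, the fit on only the groups compared 9 higher and 2 lower, leaving out 1 library 1 to 9 higher and 0 to 2 lower, replicates 1 and 2 alone 0 lower, replicates 3 and 4 alone 16 higher, and DESeq2 2 higher. The 34 members called higher per ERCC read became 20 to 34 on leaving out 1 library. They were 22 without NT replicate 1, 20 without NT replicate 4 and 1 in replicates 1 and 2 alone. Calls over all genes fell in these named fits too, to 5479 of 14642, 5838 of 14633 and 1101 of 14496. Over all genes, Mycn-gRNA2 raised 32 of 14496 in replicates 1 and 2 alone. It raised 2587 and lowered 2243 of 14640 in replicates 3 and 4 alone. On leaving out 1 library it raised 1031 to 2217 and lowered 591 to 1897. Mycn-gRNA3 raised 3139 of 14640 in replicates 3 and 4 alone and 2287 of 21095 in DESeq2. With only the groups compared it raised 3218 and lowered 2822 of 14298. Leaving out 1 library gave it 1568 to 3209 higher and 1087 to 2803 lower. Fits on fewer libraries have fewer degrees of freedom, and beyond that the cause was not tested.

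The fit with the replicate number as a block called 2 core members higher, 1 lower and 0 regulatory members, and changed no member's call with both guides on the relative scale. Between the guide groups, same-numbered libraries had correlations of 0.17 to 0.64, and differently numbered ones of -0.64 to 0.47. Of the members uncalled and below 0 on the relative scale, all 11 were above 0 per ERCC read: Psma8 at 0.23 was not called there either, and the others were called at Psma1 0.39, Psma3 0.37, Psma6 0.35, Psmc1 0.32, Psmc2 0.35, Psmc3 0.35, Psmc6 0.28, Psmd1 0.34, Psmd10 0.36 and Psmd11 0.32. Among promoters of tested genes, CACGTG was in 9.8%, TGACNNNGC in 14.3% and CCAAT in 37.4%. Depth limits Psmb11, at 40 to 79 reads, and precision limits rises near 0.15 on the log2 scale, which 1 library could end.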
